A study of Danio rerio with 19 samples.

Results

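The circadian clock and its output genes were followed in RNA-seq libraries of larval zebrafish heads from lines carrying mutations in the autism-associated genes scn1lab and dyrk1a. The members were chosen by name. Of 42 listed clock gene names, 28 matched a symbol directly, 11 matched after a final paralog letter was dropped and 3 matched none, which left 39 gene IDs out of the 32020 in the count tables. All 39 had enough counts to be tested in every comparison of the main edgeR fits, and some alternative fits tested fewer of them. CLOCK, BMAL1, PER1 and CRY1 each stand for 2 IDs, which are told apart here by ID because the table of names does not assign the zebrafish a and b copies.

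The series held 19 libraries in 6 groups, each library made from 1 head with the eyes removed. The scn1lab line carries scn1labΔ44, a deletion allele of a voltage-gated sodium channel gene, and had 3 heads of each genotype, called HOM for homozygous mutant, HET for heterozygous and WT for wild type. The dyrk1a line carries dyrk1aaΔ77 together with dyrk1abΔ8, in the 2 zebrafish copies of a protein kinase gene, and had 4 HOM, 3 HET and 3 WT heads. Per the labels the larvae were siblings or cousins from crosses of heterozygous fish, and 1 name covers the genotype at both dyrk1a genes. Larval age, time of day and light schedule at collection are not given in the sources used here, and the labels name no sampling times, so levels are described here and not phases or rhythms.

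The clock of vertebrates is a loop of transcription. CLOCK or NPAS2 pairs with BMAL proteins and switches on genes that hold E-boxes, among them the period, cryptochrome and nr1d (REV-ERB) genes; period and cryptochrome proteins then repress the pair, while REV-ERB receptors repress and ROR receptors activate the bmal genes. The PAR bZIP factors Tef, Dbp and Hlf drive D-box genes as the clock's output and NFIL3 proteins oppose them. In zebrafish most tissues keep their own clock and respond to light directly, with per2 and a cry1 copy among the light-induced genes. In mouse, DYRK1A phosphorylates CRY2 and marks it for breakdown.

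Levels are given in CPM, counts set against a library total that was scaled over all 19 libraries by edgeR's TMM method, and values in a group follow the order of replicate numbers (1, 2, 3; for dyrk1a 1, 2, 4 in WT, 2, 3, 4 in HET and 1, 2, 3, 5 in HOM). CPM is not corrected for transcript length, so it is compared between libraries and not between genes. Changes are log2 fold changes with their SE from edgeR's quasi-likelihood test, and genes whose Benjamini-Hochberg adjusted p over all tested genes was under 0.05 are called. Within a line HOM and HET were set against the same WT heads, so those comparisons are not independent.

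Library totals lay between 15.1 and 29.9 M counts. The tissue label is whole brain, but muscle genes took 0.489% to 5.06% and skin genes 1.71% to 6.53% of the counts. The libraries thus hold other tissue too. Neuron genes, all 14 of 14 detected in each group, took 0.277% to 0.381% in scn1lab WT, 0.0422% to 0.167% in scn1lab HET, 0.0591% to 0.123% in scn1lab HOM and 0.301% to 0.498% over the dyrk1a heads. In such bulk samples fewer cells of a type and less RNA per cell cannot be told apart. Digestive genes, those of exocrine pancreas and gut, exceeded 2% in scn1lab HOM 1, HOM 3 and HET 2 and in dyrk1a HET 4, the highest being 13.6%. A separate list of 10 liver genes took 3.92% in scn1lab HET 2, 2.09% in scn1lab HET 1 and at most 1.42% in the other heads. The scn1lab gene was at 6.40 to 16.3 CPM in scn1lab HOM and 15.5 to 18.5 CPM in WT. DYRK1A (ENSDARG00000023814) was at 39.3 to 58.8 CPM in dyrk1a HOM and 35.2 to 38.3 CPM in WT. The other DYRK1A ID (ENSDARG00000063570) overlapped, at 6.92 to 24.8 CPM in dyrk1a HOM and 8.76 to 17.7 CPM in WT. Since transcripts with a short deletion can persist, these levels do not check the labels.

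No clock gene passed the threshold between genotypes within either line. In scn1lab HOM against WT 0 of 39 members passed, where 0.00466% of all genes did, a single gene, egr4, an early-response transcription factor named after its value was seen. At an unadjusted p under 0.05 there were 11 members and 4057 of 21466 genes. Of the members, 30 of 39 had a change below 0, and their median was −0.43 against 0.09 over all genes. A fit of the 6 compared heads alone, with its own estimate of the spread, called 4 of the 38 members it tested, all lower, beside 10% of all genes in either direction and 5.75% lower: RORA, rorab, nfil3-5 and csnk1e. DESeq2 called those and also nr1d4a and nfil3-6, 6 of 38, all lower, beside 3.81% of all genes lower and 7.47% in either direction.

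In scn1lab HET against WT 0 of 39 passed, as did 0% of all genes, with 0 called by DESeq2 beside 1.39% of all genes; 9 members and 2833 of 21466 genes had an unadjusted p under 0.05. The HET median was −0.37 against 0.06 over all genes, and 30 of 39 members were below 0. HOM against HET had a median of 0.00 against 0.01, with 0 of 39 called beside 0.00466% of all genes, 0 by DESeq2 beside 0.284%, and 3 members and 915 genes at an unadjusted p under 0.05.

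In dyrk1a HOM against WT 0 of 39 passed beside 0% of all genes, DESeq2 also called 0 beside 0.709%, and 7 members and 1640 of 21025 genes had an unadjusted p under 0.05. The member median was −0.18 against 0.01 over all genes, 28 of 39 members were below 0, and the changes ran from −0.81 to 1.14 with SEs of 0.13 to 1.46. For HET against WT 0 of 39 passed beside 0% of all genes, with 0 by DESeq2 beside 0.14%, 1 member and 700 genes at an unadjusted p under 0.05 and medians of −0.04 against 0.01. Again 0 of 39 passed in HOM against HET beside 0% of all genes, with 0 by DESeq2 beside 0.712%, 4 members and 1389 genes at an unadjusted p under 0.05 and medians of −0.19 against −0.02. The lowest adjusted p of any member was 0.559 in HOM against WT, 0.9996 in HET against WT and 0.678 in HOM against HET (edgeR).

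The calls lay between the wild-type heads of the 2 lines. There 5 of 39 members passed, 12.8% of them, beside 2.08% of all genes. ciarta was higher in dyrk1a WT, 1 member beside 1.1% of all genes, and cry3a, NR1D2, hlfa and nfil3-5 were lower, 4 members beside 0.974%. Line and collection of the heads cannot be told apart, since no library joins the lines and the column names of the scn1lab tables carry a date-like tag that the dyrk1a tables lack. DESeq2 and a fit of the 6 WT heads alone each called 11 of 39, beside 7.55% and 9.21% of all genes. Without overlap, 12 of 39 members were lower in all dyrk1a WT heads, beside 16.9% of all genes, and 8 were higher, beside 17.9%. Leaving out 1 WT head in turn gave 2 to 5 calls: 2 without dyrk1a WT 1, and 3 without dyrk1a WT 2, dyrk1a WT 4 or scn1lab WT 2.

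The HOM effect was not shown to differ between lines: 0 of 39 members passed beside 0.0267% of all genes, with 5 members and 2428 of 22488 genes at an unadjusted p under 0.05. DESeq2 called 2 members with a more positive effect in dyrk1a, RORA and nr1d4a, beside 0.723% of all genes in that direction and 1.31% in either. Of these, nr1d4a had only 5, 0 and 0 counts in the scn1lab HOM heads. For the HET effect 0 of 39 passed beside 0.00445% of all genes, with 0 by DESeq2 beside 0.424%, and 2 members and 1377 genes at an unadjusted p under 0.05.

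**Figure D1:**
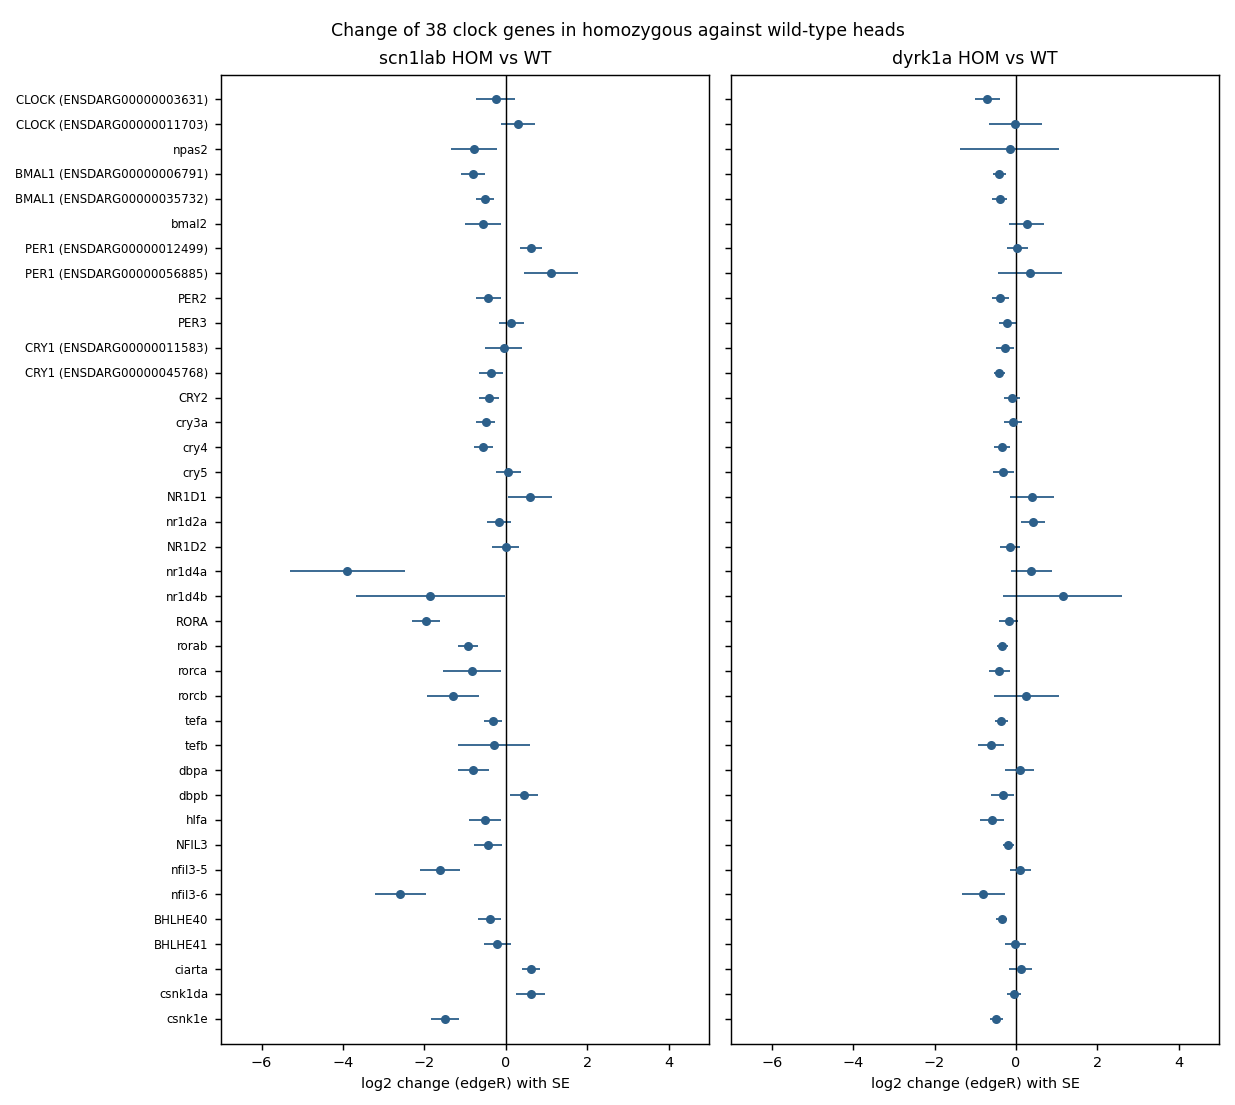
Each point is the log2 change of 1 of 38 clock genes in homozygous against wild-type heads and its bar is 1 SE, on the left for scn1lab and on the right for dyrk1a. In scn1lab 29 of 38 points lie below 0, and the lowest with a narrow bar is RORA at −1.96; in dyrk1a 27 of 38 lie below 0, but closer to it.

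The positive arm had 6 members. In scn1lab HOM 5 of 6 had a change below 0 and in scn1lab HET 6 of 6, with medians of −0.53 and −0.79. BMAL1 (ENSDARG00000006791), the partner of CLOCK, was at 33.5, 57.8 and 55.8 CPM in scn1lab WT, 20.3, 32.5 and 18.9 in HET, and 29.9, 27.6 and 26.4 in HOM. Every mutant head of that line lay below every WT head, and the HOM change was −0.81 ± 0.30 (adjusted p = 0.207, edgeR). WT 1 was only just above HET 2, at 33.5 against 32.5 CPM. The higher WT 2 and WT 3 were also the heads richest in photoreceptor transcripts, as given below. In dyrk1a it read 36.0, 47.7 and 44.7 CPM in WT, 36.6, 31.2 and 36.2 in HET, and 31.4, 28.7, 38.1 and 30.3 in HOM, with overlapping groups and a HOM change of −0.41 ± 0.16.

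The other copy, BMAL1 (ENSDARG00000035732), was at 30.6, 43.2 and 42.8 CPM in scn1lab WT, 27.6, 25.9 and 24.3 in HET, and 28.7, 26.7 and 26.5 in HOM. Again no mutant head reached the lowest WT head, the HOM change being −0.51 ± 0.22 (adjusted p = 0.256, edgeR). That lowest head was WT 1, at 30.6 CPM against 28.7 in HOM 1, while WT 2 and WT 3 were higher. In dyrk1a it stood at 27.0, 37.2 and 46.3 CPM in WT, 32.2, 33.5 and 27.2 in HET, and 27.3, 28.2, 29.3 and 26.4 in HOM, where WT and HOM overlapped. Over all members, 14 of 39 had scn1lab HOM wholly below WT, beside 18.3% of all genes, and 4 of 39 had it wholly above, beside 18.2%. For scn1lab HET these counts were 11 of 39 below, beside 11% of all genes, and 0 above, beside 9.79%; for HOM against HET they were 3 below, beside 2.9%, and 3 above, beside 4.97%.

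CLOCK (ENSDARG00000003631), the E-box activator, was at 38.1, 38.3 and 45.2 CPM in scn1lab WT, 43.3, 27.5 and 7.95 in HET, and 31.1, 40.3 and 31.3 in HOM. The low value belongs to scn1lab HET 3, where ribosomal protein genes took 19.3% of the counts against 4.72% to 8.93% elsewhere; the part of that library's make-up in its clock levels was not tested. In dyrk1a the values were 27.7, 30.1 and 31.7 CPM in WT, 14.1, 17.9 and 8.15 in HET, and 18.8, 11.9, 29.0 and 13.4 in HOM. All HET heads lay below WT (change −1.14 ± 0.35), and HOM overlapped WT through HOM 3 alone. The HET change did not pass, since the lowest adjusted p of any member in that comparison was 0.9996 (edgeR). The second CLOCK ID (ENSDARG00000011703) ran from 6.01 to 18.7 CPM in scn1lab heads and from 1.09 to 10.4 in dyrk1a heads.

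npas2, which can take the place of CLOCK, separated the lines in every head. Its scn1lab values were 2.76, 7.32 and 3.87 CPM in WT, 3.42, 2.25 and 1.41 in HET, and 1.87, 3.47 and 2.75 in HOM. Its dyrk1a levels were 0.229, 0.396 and 0.51 CPM in WT, 0.113, 0.607 and 0.261 in HET, and 0, 0.389, 0.663 and 0.304 in HOM. The WT difference was −3.59 ± 0.94 (adjusted p = 0.0567, edgeR), which did not pass, and it passed by DESeq2 and in the fit of the WT heads alone. bmal2, a second partner, was at 5.24, 6.30 and 5.35 CPM in scn1lab WT, 1.79, 3.35 and 1.85 in HET, and 2.91, 5.26 and 3.33 in HOM. Its dyrk1a values were 1.74, 1.90 and 2.0 CPM in WT, 3.2, 1.62 and 3.14 in HET, and 1.66, 2.04, 2.03 and 3.28 in HOM. The WT groups of the lines did not overlap, and their difference was −1.58 ± 0.44 (adjusted p = 0.0698, edgeR).

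**Figure D2:**
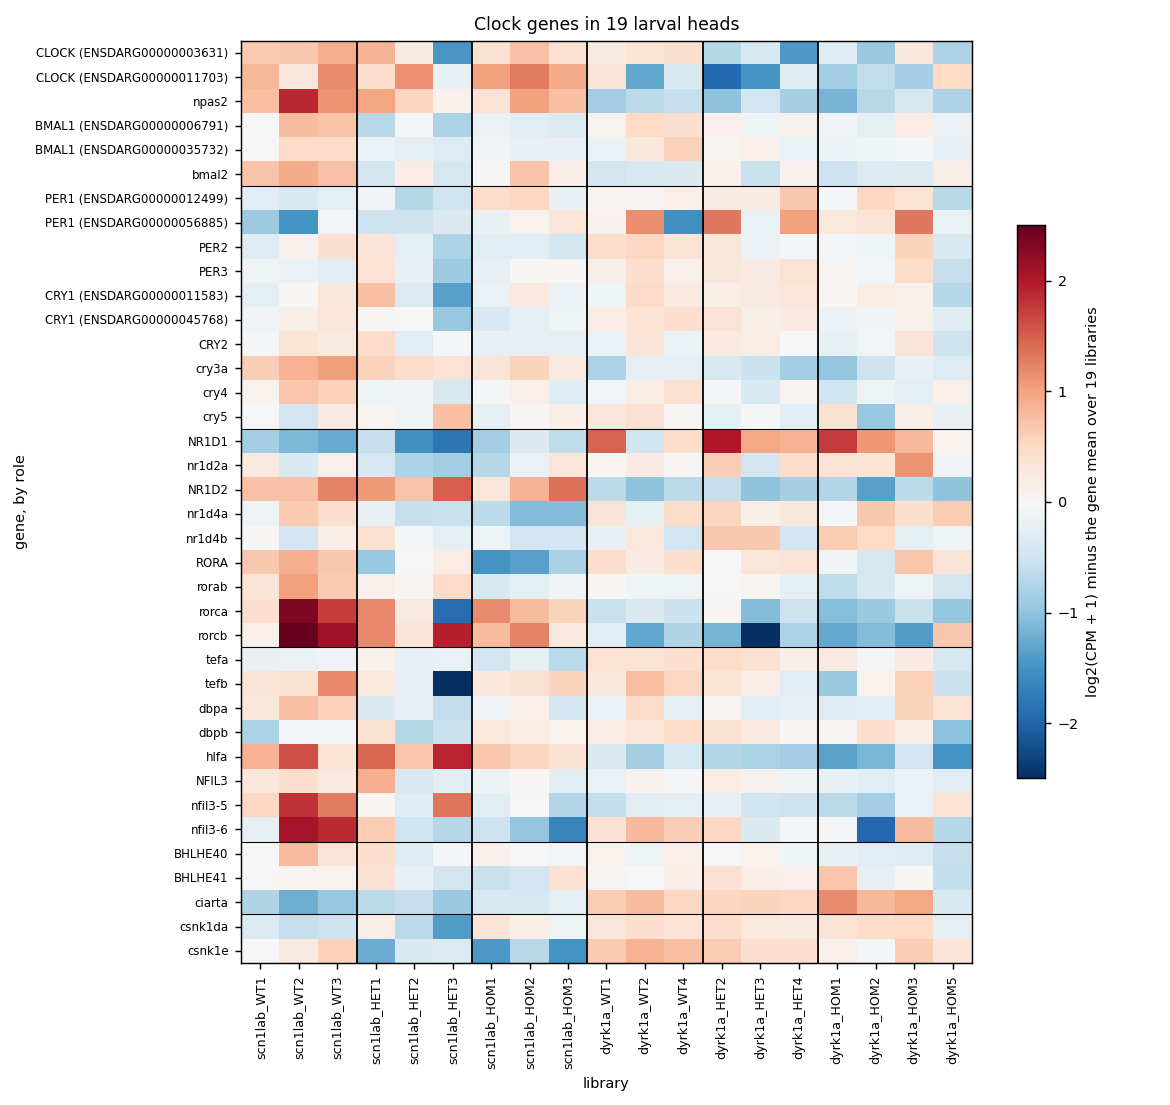
Each row is 1 of 38 clock genes, grouped by role, and each column is 1 of the 19 libraries; colour gives log2(CPM + 1) minus the gene's mean over the libraries, red above and blue below it. The rows of NR1D1, NR1D2, ciarta and hlfa largely change colour between the lines, and rorca, rorcb and nfil3-6 are reddest in scn1lab WT 2 and WT 3.

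The negative arm, taken here as all members with a per or cry name, had 10 members, and in no comparison within a line did one pass. Grouping by name does not show that each of them represses CLOCK and BMAL. cry3a, a cryptochrome, was the one that separated the lines. It was at 401, 478 and 539.7 CPM in scn1lab WT, 388, 355 and 332 in HET, and 326, 380.5 and 303 in HOM. The dyrk1a heads read 149, 227 and 219 CPM in WT, 197, 178 and 143 in HET, and 132, 182, 229 and 207 in HOM. No dyrk1a head reached any scn1lab head. Between the WT heads cry3a was 2.38-fold lower in dyrk1a, a log2 change of −1.25 ± 0.23 (adjusted p = 0.00847, edgeR), and the call was lost without dyrk1a WT 1 (adjusted p = 0.0548, edgeR).

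PER2, a repressor and light-induced gene in zebrafish, was at 64.4, 86.2 and 106 CPM in scn1lab WT, 99.6, 67.8 and 46.4 in HET, and 65.4, 66.5 and 57.7 in HOM. These groups overlapped. In the dyrk1a line the values were 109.7, 114 and 100.5 CPM in WT, 96.8, 71.9 and 77.8 in HET, and 77.4, 73.7, 118 and 60.9 in HOM, where HET lay wholly below WT and HOM did so save for HOM 3. The dyrk1a HET change was −0.37 ± 0.22. CRY1 (ENSDARG00000045768), a repressor of the CLOCK and BMAL pair, was at 141, 167 and 185 CPM in scn1lab WT, 152, 152 and 77.5 in HET, and 115, 129 and 138 in HOM. The dyrk1a heads were at 171, 189 and 200.3 CPM in WT, 194, 167 and 174 in HET, and 135, 142, 163 and 122 in HOM. HOM lay below WT in both lines without overlap, with changes of −0.37 ± 0.29 in scn1lab and −0.41 ± 0.14 in dyrk1a (adjusted p = 0.517 and 0.564, edgeR).

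In dyrk1a HOM 5 of 39 members lay wholly below WT, beside 3.64% of all genes, and 0 wholly above, beside 4.06%: this CRY1, rorca, tefa, BHLHE40 and csnk1e. For dyrk1a HET 4 lay below, beside 6.5%, and 1 above, beside 5.52%; for HOM against HET 3 lay below, beside 2.71%, and 0 above, beside 4.28%. PER1 (ENSDARG00000056885), a repressor read at low counts, was at 1.2, 0.474 and 2.95 CPM in scn1lab WT, 1.88, 1.89 and 2.21 in HET, and 2.63, 3.38 and 4.09 in HOM. It was more uneven in dyrk1a, at 3.49, 8.23 and 0.437 CPM in WT, 9.29, 2.70 and 7.48 in HET, and 3.99, 4.27, 9.32 and 2.67 in HOM, and no group stood apart. The other PER1 (ENSDARG00000012499) was among the few members with scn1lab HOM above WT, at 32.1 to 52.7 against 27.9 to 30.6 CPM (change 0.62 ± 0.27, adjusted p = 0.256, edgeR). PER3, CRY1 (ENSDARG00000011583), CRY2, cry4 and cry5 had HOM changes between −0.55 and 0.14 in scn1lab and between −0.34 and −0.10 in dyrk1a.

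The nuclear receptors, 9 members, included RORA and rorab, both wholly lower in scn1lab HOM than in WT heads. RORA, an activator of bmal genes, was at 131, 151 and 132 CPM in scn1lab WT, 41.9, 81.3 and 92.8 in HET, and 28.6, 31.2 and 46.5 in HOM. HET and HOM lay wholly below WT, and HOM overlapped HET through HOM 3 and HET 1. The HOM change was −1.96 ± 0.33, 3.89-fold lower (adjusted p = 0.141 over all 9 heads and 0.0198 in the fit of HOM and WT alone, edgeR). DESeq2 gave it an adjusted p of 7.37e-05, far from that of edgeR, and why the methods differ was not tested. In dyrk1a RORA was at 112, 94.6 and 111 CPM in WT, 80.9, 101 and 105 in HET, and 77.1, 60.1, 133 and 102 in HOM, with overlap in each comparison and a HOM change of −0.18 ± 0.24. The difference between these HOM effects was 1.78 ± 0.41 (adjusted p = 0.247, edgeR; 0.00935 by DESeq2).

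Beside these RORA levels, the share of neuron genes was lower in every scn1lab HET and HOM head than in any scn1lab WT head. So was the share of 9 astroglia genes, at 0.167% to 0.312% in HOM and 0.245% to 0.266% in HET against 0.455% to 0.627% in WT. The part of cell make-up in the levels of RORA and the other members was not tested. With the photoreceptor share as a covariate the HOM change was −1.91, and with only heads under 2% of digestive genes it was −2.15 (the latter leaves HOM 2 alone in its group). rorab, a ROR receptor, was at 127, 207 and 159 CPM in scn1lab WT, 110.4, 105 and 141 in HET, and 77.2, 85.5 and 95.6 in HOM. Its HOM heads lay below every other scn1lab head (change −0.93 ± 0.25, adjusted p = 0.16, edgeR; 0.0402 in the fit of HOM and WT alone). In dyrk1a it was at 105, 94.0 and 92.0 CPM in WT, 100.4, 106 and 86.5 in HET, and 64.9, 75.9, 92.4 and 73.5 in HOM, where HOM 3 overlapped WT (change −0.33 ± 0.14).

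rorca and rorcb, ROR receptors too, were uneven among scn1lab WT heads. rorca was at 37.9, 146 and 96.2 CPM in scn1lab WT, 66.1, 33.3 and 6.80 in HET, and 65.3, 49.3 and 41.8 in HOM. Levels in dyrk1a were 18.9, 21.8 and 19.2 CPM in WT, 29.3, 12.8 and 19.3 in HET, and 12.9, 14.4, 18.8 and 13.8 in HOM. WT 1 of scn1lab was thus far below the other WT heads of its line and still above the dyrk1a WT heads (WT difference −2.23 ± 0.58, adjusted p = 0.0582, edgeR). rorcb was at 23.5, 165 and 94.8 CPM in scn1lab WT, 50.7, 27.0 and 85.1 in HET, and 37.6, 51.6 and 25.7 in HOM. The dyrk1a values were 17.5, 8.15 and 12.4 CPM in WT, 9.02, 0.978 and 11.9 in HET, and 8.21, 9.57, 7.45 and 34.9 in HOM. The scn1lab heads exceeded the dyrk1a heads in all but a single HOM 5 value.

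**Figure D3:**
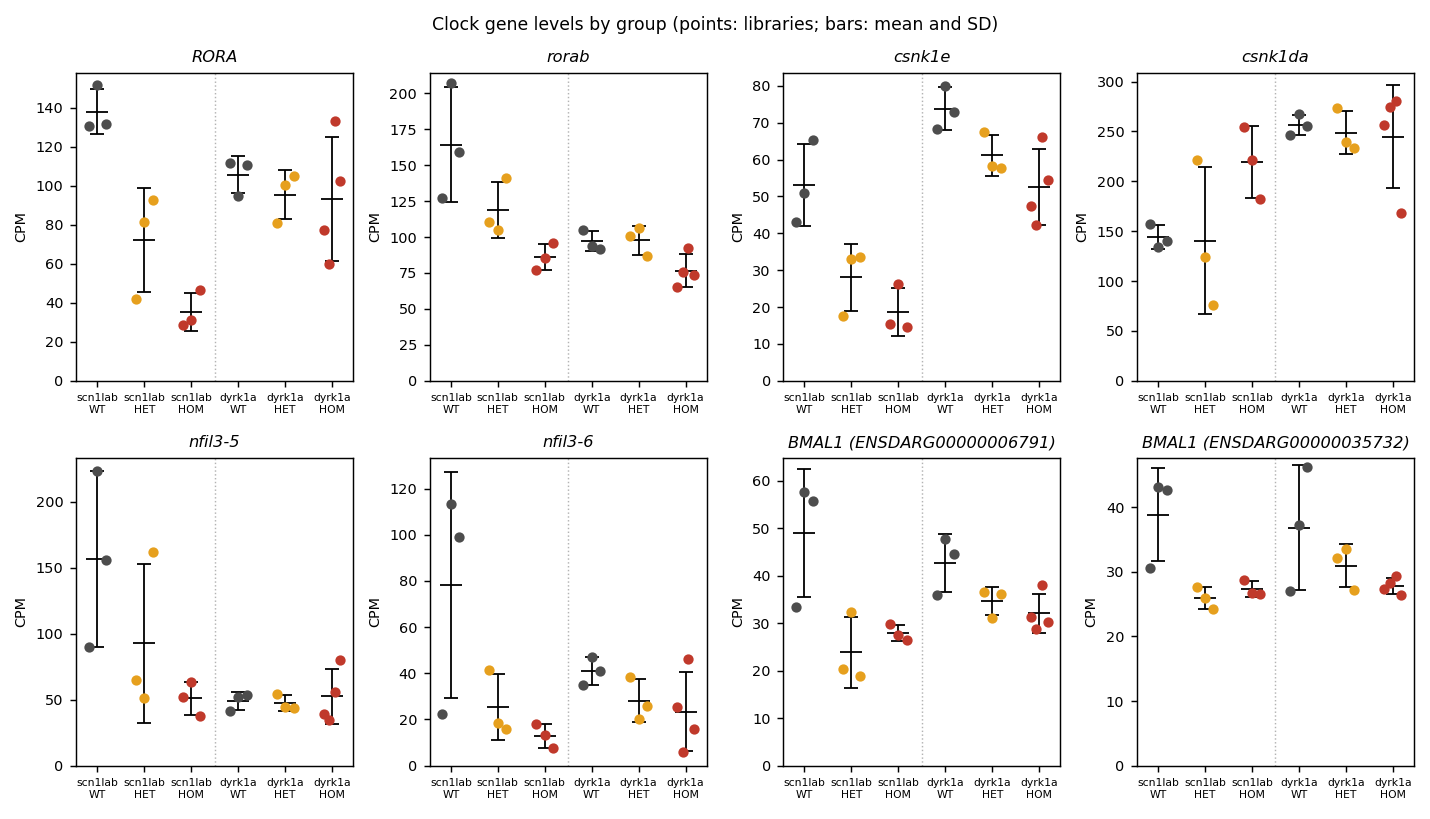
CPM of 8 clock genes in each library (points), with the mean and SD of each group (bars), wild type in grey, heterozygous in orange and homozygous in red, scn1lab left of the dotted line. All scn1lab HOM points of RORA, rorab and csnk1e lie below all WT points, while those of csnk1da lie above.

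NR1D2, a REV-ERB repressor of bmal genes, separated the lines in all 19 heads. It was at 36.9, 36.7 and 52.5 CPM in scn1lab WT, 46.4, 36.2 and 62.9 in HET, and 27.0, 40.2 and 58.3 in HOM. The dyrk1a heads gave 13.4, 10.3 and 13.2 CPM in WT, 14.3, 10.4 and 11.7 in HET, and 12.6, 7.92, 13.4 and 10.3 in HOM. The WT difference was −1.77 ± 0.30, 3.42-fold lower in dyrk1a (adjusted p = 0.00478, edgeR), and it passed without any 1 of the WT heads. The genotypes overlapped within each line, with HOM changes of 0.00 ± 0.33 in scn1lab and −0.15 ± 0.24 in dyrk1a.

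Its relative nr1d2a did not part the lines. nr1d2a was at 128, 83.0 and 118 CPM in scn1lab WT, 80.7, 62.3 and 59.4 in HET, and 65.6, 95.5 and 132 in HOM. HET lay below WT, while HOM ran from within the HET range to just above the WT range. Its dyrk1a levels were 111, 125 and 109.9 CPM in WT, 165, 77 and 148 in HET, and 139, 137, 236 and 102 in HOM, with overlap throughout. NR1D1, the other main REV-ERB gene, was higher in dyrk1a WT heads, running from 2.39 to 3.51 CPM in scn1lab WT and from 4.79 to 21.7 in dyrk1a WT. These WT groups did not overlap, and their difference was 2.08 ± 0.57 (adjusted p = 0.0675, edgeR; 0.0075 by DESeq2). Over all heads the lines did overlap, with scn1lab reaching 5.35 CPM.

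nr1d4a, a REV-ERB-like receptor kept in fish, was near the limit of detection. It was at 0.946, 2.33 and 1.84 CPM in scn1lab WT, 0.856, 0.426 and 0.442 in HET, and 0.346, 0 and 0 in HOM, the last from 5, 0 and 0 counts. Its HOM change was −3.89 ± 1.41 (adjusted p = 0.204, edgeR; 0.027 by DESeq2), the largest in size among the members, and it rested on those few counts. In dyrk1a it was at 1.65, 0.792 and 1.93 CPM in WT, 2.07, 1.35 and 1.57 in HET, and 1.08, 2.38, 1.79 and 2.31 in HOM. nr1d4b stayed at or under 1.24 CPM in every head, and 5 of the 19 heads had 0 counts.

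The bZIP output factors, 8 members, were 5 PAR bZIP activators and 3 NFIL3 repressors. tefa, an activator of D-box genes, was at 301, 309 and 322 CPM in scn1lab WT, 370.2, 302 and 306 in HET, and 246, 288 and 214 in HOM. The dyrk1a heads were at 441, 437 and 459 CPM in WT, 473, 448 and 388 in HET, and 400.1, 333, 394 and 258 in HOM. HOM lay below WT in both lines, by −0.31 ± 0.23 in scn1lab and −0.36 ± 0.16 in dyrk1a (adjusted p = 0.476 and 0.639, edgeR). dbpa, of the same family, was at 6.31, 9.03 and 7.94 CPM in scn1lab WT, 3.67, 4.20 and 2.91 in HET, and 4.63, 5.49 and 3.26 in HOM. All 6 mutant heads lay below WT there, while in dyrk1a the groups overlapped at 4.36, 7.20 and 4.08 CPM in WT, 5.30, 3.98 and 4.18 in HET, and 3.77, 3.88, 7.80 and 6.68 in HOM. tefb ran from 20.5 to 92.4 CPM except for 1.24 CPM in scn1lab HET 3, and dbpb from 14.0 to 40.7 CPM.

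hlfa, also a PAR bZIP activator, parted the lines in all heads. It was at 27.6, 46.8 and 18.7 CPM in scn1lab WT, 41.6, 24.2 and 57.9 in HET, and 24.3, 21.9 and 19.4 in HOM. In dyrk1a the values were 11.2, 7.84 and 10.5 CPM in WT, 8.46, 7.99 and 7.58 in HET, and 5.21, 6.07, 10.2 and 4.62 in HOM. Between WT heads hlfa was 3.15-fold lower in dyrk1a, at −1.66 ± 0.37 (adjusted p = 0.0274, edgeR), but the call held in only 1 of the 6 fits that left out a WT head, without scn1lab WT 3, with adjusted p up to 0.158. Together with npas2, cry3a and NR1D2 it made 4 of 39 members whose dyrk1a heads all lay below all scn1lab heads, beside 1.73% of all genes, and 0 lay above, beside 2.73%.

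The NFIL3 repressors oppose those factors at D-boxes. nfil3-5 was at 90.3, 224 and 156 CPM in scn1lab WT, 65.2, 51.2 and 162 in HET, and 52.2, 63.1 and 37.7 in HOM. HOM lay wholly below WT (change −1.62 ± 0.49, adjusted p = 0.168, edgeR; 0.0376 in the fit of HOM and WT alone). The dyrk1a heads read 41.1, 52.4 and 53.6 CPM in WT, 54.4, 44.2 and 43.8 in HET, and 39.3, 34.4, 55.9 and 80.3 in HOM, with no step by genotype. Between WT heads it was 3.2-fold lower in dyrk1a, at −1.68 ± 0.42 (adjusted p = 0.0469, edgeR). That call held in 1 of the 6 fits that left out a WT head, without scn1lab WT 1, and was lost in the others with adjusted p up to 0.208. It was also lost with DESeq2's size factors in place of TMM (adjusted p = 0.0515, edgeR).

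nfil3-6 was at 22.4, 113 and 99.1 CPM in scn1lab WT, 41.6, 18.3 and 15.8 in HET, and 18.1, 13.1 and 7.74 in HOM. Its HOM change of −2.59 ± 0.64 (adjusted p = 0.156, edgeR; 0.0026 by DESeq2) came with high values in WT 2 and WT 3, while WT 1 lay just above the highest HOM head. Across dyrk1a heads it stood at 34.8, 47.0 and 40.9 CPM in WT, 38.3, 20.3 and 25.8 in HET, and 25.3, 6.02, 46.1 and 15.7 in HOM. NFIL3 itself was steadier, at 94.3, 104 and 92.1 CPM in scn1lab WT, 146, 58.6 and 63.6 in HET, and 70.1, 78.8 and 64.5 in HOM. In dyrk1a NFIL3 was at 69.0, 83.7 and 74.4 CPM in WT, 88.5, 83.7 and 72.3 in HET, and 67.9, 64.1, 69.4 and 63.1 in HOM. The scn1lab HOM heads lay below WT, and the dyrk1a HOM and WT heads overlapped only between HOM 3 and WT 1.

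In the scn1lab line the highest heads for rorca, rorcb, nfil3-5 and nfil3-6 were mostly those highest in photoreceptor transcripts. The 17 photoreceptor genes, all detected in each group, summed to 0.650% and 0.510% of counts in scn1lab WT 2 and WT 3 and to 0.00303% in WT 1. The next highest head was scn1lab HET 3 with 0.203%, and the others ranged up to 0.159%. The protocol states that eyes were removed. WT 2 and WT 3 were also the highest scn1lab heads for some other members, among them both BMAL1 IDs, cry4, npas2 and dbpa. nfil3-5, nfil3-6, rorca and rorcb were highest in WT 2, and of these nfil3-6, rorca and rorcb were second in WT 3, while HET 3 was second for nfil3-5 but lowest of the line for rorca. The dyrk1a heads, none with a share above 0.159%, did not show this order throughout. There WT 1, with that highest share of the line, had rorca at 18.9 CPM, within the range of the other heads. Its rorcb, at 17.5 CPM, was exceeded in the line by HOM 5 alone. In dyrk1a HET 3 the share was 0.101%, with the line's lowest rorca and rorcb at 12.8 and 0.978 CPM. dyrk1a HOM 5 had the line's lowest share, 0.00496%, and its highest rorcb and nfil3-5, at 34.9 and 80.3 CPM. The part of photoreceptor RNA in these levels was not tested directly. With the photoreceptor share as a covariate the nfil3-5 change in scn1lab HOM was −1.0, against −1.62 without it. The nfil3-5 WT difference between lines was −1.45 (adjusted p = 0.0832, edgeR), which did not pass, against −1.68 without the covariate. For rorca that WT difference was −2.11 with the covariate (adjusted p = 0.111, edgeR) and −2.23 without it, and neither passed. Such values for rorcb and nfil3-6 are not given here.

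**Figure D4:**
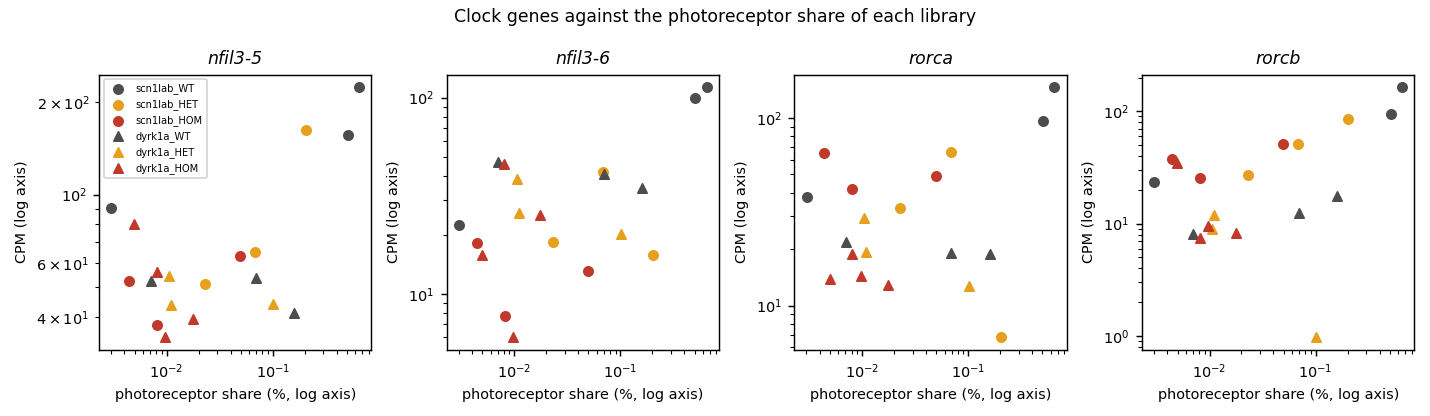
CPM of 4 clock genes against the summed share of 17 photoreceptor genes in each of the 19 libraries, both axes logarithmic, circles for scn1lab and triangles for dyrk1a, wild type in grey, heterozygous in orange and homozygous in red. The 2 rightmost circles are scn1lab WT 2 and WT 3 with shares of 0.650% and 0.510%, and they hold the top values of nfil3-6, rorca and rorcb.

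Of the 3 E-box repressors, ciarta stood apart between the lines. It encodes a relative of mouse CHRONO, which represses the CLOCK and BMAL1 pair. ciarta was at 43.2, 31.1 and 37.9 CPM in scn1lab WT, 46.1, 49.2 and 38.0 in HET, and 55.7, 54.1 and 62.9 in HOM. Levels in dyrk1a were 115, 127 and 106 CPM in WT, 107, 109 and 106 in HET, and 168, 131, 144 and 56.7 in HOM, so that HOM 5 alone of the dyrk1a heads lay within the scn1lab range. Between WT heads it was 3.10-fold higher in dyrk1a, at 1.63 ± 0.28 (adjusted p = 0.0053, edgeR), and it passed without any 1 of the WT heads. Within scn1lab every HOM head lay above every WT and HET head (HOM against WT 0.62 ± 0.22, adjusted p = 0.2, edgeR).

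BHLHE40, which competes for E-boxes, was at 228, 394 and 282 CPM in scn1lab WT, 302, 183 and 218 in HET, and 242, 228 and 215 in HOM. In dyrk1a it was at 238, 209 and 246 CPM in WT, 226, 241 and 209 in HET, and 198, 187, 183 and 151 in HOM. The dyrk1a HOM heads lay below all other heads of that line, by −0.35 ± 0.14 against WT (adjusted p = 0.571, edgeR), and the scn1lab groups overlapped. BHLHE41, its relative, was at 36.1, 38.1 and 39.2 CPM in scn1lab WT, 48.1, 31.6 and 26 in HET, and 24.7, 25.9 and 47.6 in HOM. Its dyrk1a values were 38.4, 36.7 and 41.2 CPM in WT, 48.1, 41.2 and 39.8 in HET, and 59.6, 31.6, 37.3 and 23.7 in HOM. BHLHE41 overlapped between HOM and WT in both lines, with changes of −0.21 ± 0.33 and −0.02 ± 0.26.

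**Figure D5:**
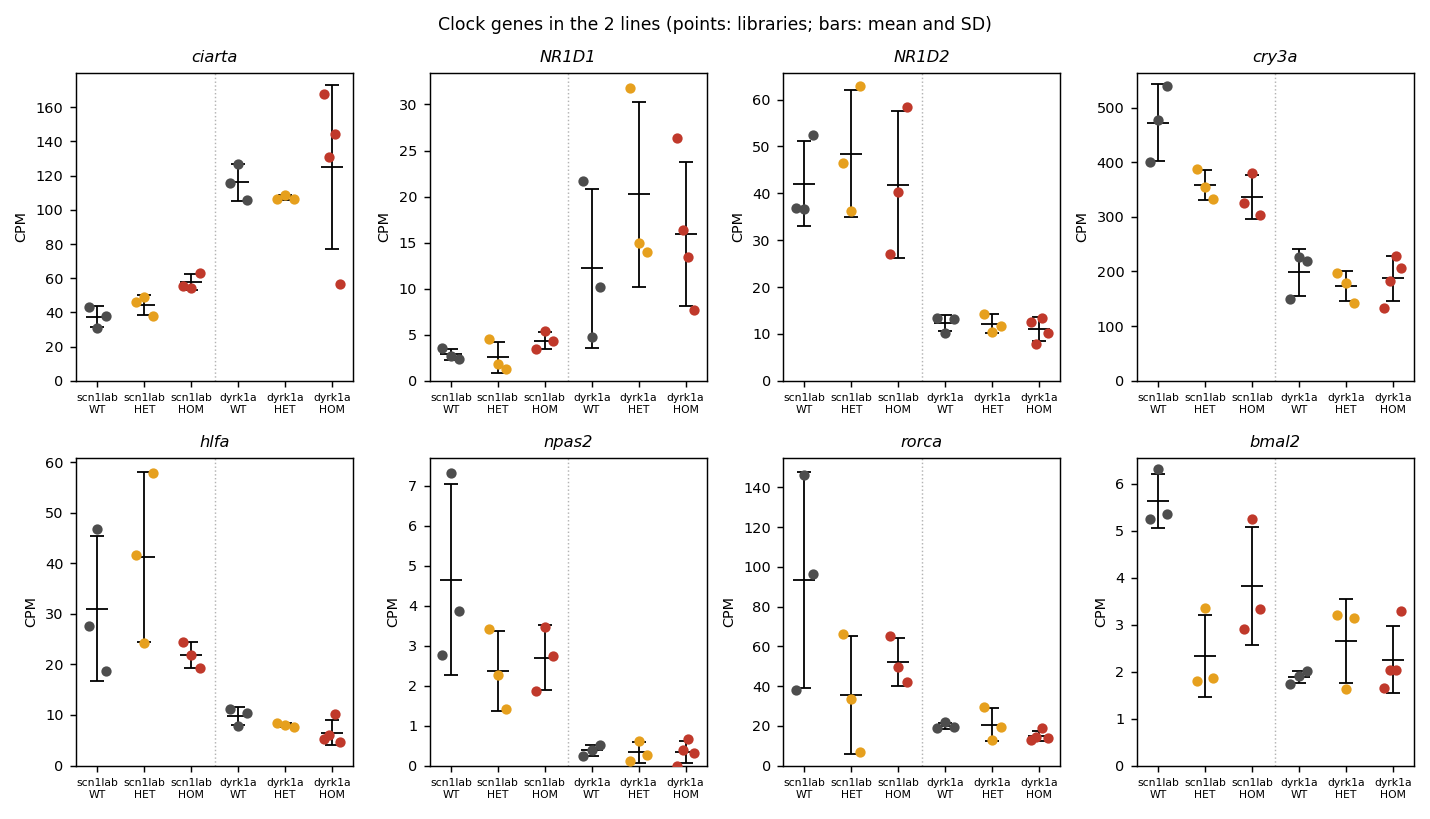
CPM of 8 clock genes in each library (points), with the mean and SD of each group (bars), wild type in grey, heterozygous in orange and homozygous in red, scn1lab left of the dotted line. ciarta and NR1D1 sit higher in dyrk1a WT than in scn1lab WT heads, and NR1D2, cry3a, hlfa and npas2 are lower in all 10 dyrk1a heads than in all 9 scn1lab heads.

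Casein kinases mark period proteins for breakdown. csnk1e was at 43.2, 50.9 and 65.2 CPM in scn1lab WT, 17.6, 32.9 and 33.7 in HET, and 15.4, 26.2 and 14.6 in HOM. All mutant heads lay below WT, and the HOM change was −1.50 ± 0.35, 2.82-fold lower (adjusted p = 0.156, edgeR; 0.0281 in the fit of HOM and WT alone). The neuron and astroglia shares split these heads in the same way, and the part of cell make-up was not tested. With only heads under 2% of digestive genes, HOM 2 alone in its group, the change was −1.02. Its dyrk1a levels were 68.4, 80.0 and 72.9 CPM in WT, 67.6, 58.2 and 57.7 in HET, and 47.5, 42.2, 66.2 and 54.5 in HOM. Here too HET and HOM lay wholly below WT, by −0.25 ± 0.17 and −0.48 ± 0.16 (adjusted p = 1 and 0.559, edgeR).

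csnk1da lay higher in scn1lab HOM than in WT heads. It was at 157, 135 and 140.1 CPM in scn1lab WT, 221, 124 and 76.0 in HET, and 255, 221 and 183 in HOM, with HOM above WT by 0.61 ± 0.36 (adjusted p = 0.381, edgeR). In the dyrk1a line the values were 247, 267 and 255 CPM in WT, 273, 239.5 and 234 in HET, and 256, 274, 280.2 and 168 in HOM, with overlap.

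Of 4 lists of other clock pathway genes none had a call within a line. Between WT heads the light-induced and repair list had 2 of 9 genes higher in dyrk1a, beside 1.1% of all genes, and 0 lower: XPC, a DNA damage sensor (1.3 ± 0.22, adjusted p = 0.00478, edgeR), and cpdp, a photolyase (0.71 ± 0.17, adjusted p = 0.0455, edgeR). XPC was at 39.9, 36.9 and 43.6 CPM in scn1lab WT and at 95.1, 106 and 94.2 in dyrk1a WT. Among clock accessory genes 1 of 28 passed, beside 0.974% of all genes lower: cry3b, lower in dyrk1a like its paralog cry3a (−1.37 ± 0.32, adjusted p = 0.0389, edgeR). It was at 49.5, 83.8 and 74.7 CPM in scn1lab WT and at 20.7, 24.2 and 35.8 in dyrk1a WT. The pineal and melatonin list, 18 genes tested, and the cell cycle and metabolic output list, 20 genes tested, had 0.

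The pineal and melatonin list had medians of −1.10 in scn1lab HOM and −1.37 in scn1lab HET against WT, and of −0.56 in dyrk1a HOM and 0.01 in dyrk1a HET. Its largest changes were those of crx, CRX (ENSDARG00000043483) and OPN4 (ENSDARG00000007553), a pair of photoreceptor transcription factors and a melanopsin, at −4.21 ± 1.68, −4.14 ± 1.24 and −3.11 ± 1.05 in scn1lab HOM. crx was at 0.315, 103 and 75.0 CPM in scn1lab WT, with the high values in the same heads that held the photoreceptor transcripts. aanat2, the melatonin enzyme of the pineal gland, was at 0.276, 6.56 and 6.30 CPM in scn1lab WT with 4.33 CPM in scn1lab HET 3 and at most 1.97 in the other heads. Among accessory genes the largest HOM changes in scn1lab were those of NONO (−1.07 ± 0.42) and RORB (−1.05 ± 0.48), with tipin at 0.91 ± 0.76 in dyrk1a.

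PER2 and CRY1 levels correlated over all 19 heads, pooled across lines and genotypes. Of 10 gene pairs correlated on log2(CPM + 1), PER2 with CRY1 (ENSDARG00000045768) had r = 0.81 and rho = 0.79 over 19 heads (permutation p adjusted over the pairs 0.0002 and 0.0016), and r = 0.79 without the 2 heads farthest from the PER2 median. Within scn1lab (n = 9, exact permutation) r was 0.83 (adjusted p = 0.0189) and rho 0.85 (adjusted p = 0.0538). Within dyrk1a (n = 10, permutation) r was 0.70 and rho 0.54 (adjusted p = 0.128 and 0.622). The other CRY1 gave r = 0.83 in scn1lab (0.78 without 2 heads) and 0.49 in dyrk1a, which became 0.06 without 2 heads. In scn1lab the heads left out were WT 3 and HET 1. HET 3, the lowest of the line for PER2 and both CRY1 IDs, stayed in, so its part in these correlations was not tested. tefa with PER3 gave r = 0.79 in dyrk1a, which became −0.32 without 2 heads, and 0.06 in scn1lab. NR1D1 was higher in dyrk1a WT than in scn1lab WT heads, though edgeR did not call it. Its 7 pairs were therefore read within lines, where no pair passed after adjustment. All values share library depth and scaling. The permutations moved heads freely across genotypes, and across lines for all 19. Differences between groups are therefore part of every r, rho and p given here, and correlation between heads of 1 genotype was not tested.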

How the data were processed

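RNA-seq of 19 larval zebrafish heads was analysed from 1 table per library of raw gene counts, whole numbers that the authors deposited without scaling. Per the submitters' processing notes, Trim Galore 0.5.0, HISAT2 2.1.0, StringTie 1.3.3b and DESeq2 1.22.1 were used with the GRCz11 build. Per the labels' protocols libraries came from a low-input kit, and 2 RNA kits are named without saying which library had which. Nothing used here states that strand was used in counting, so genes that overlap on opposite strands cannot be told apart, and reads of near-identical paralogs may be shared. Symbols came from a table of gene names that covers 28975 of 32020 IDs.

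The analysis ran in R 4.3.3. After edgeR's default filter on low counts (filterByExpr) and TMM scaling, edgeR 4.0.16 compared groups by two-sided quasi-likelihood F tests with robust dispersions, and p-values were adjusted over all genes by Benjamini-Hochberg at a threshold of 0.05. There was 1 fit per line (21466 genes for scn1lab, 21025 for dyrk1a) and 1 of all 19 libraries for comparisons between lines (22488 genes). Each SE was computed back from F. Alternatives were DESeq2 1.42.0, its size factors, no filter, fits of only the compared groups, a block, digestive or photoreceptor share as covariate, and leaving out libraries. Correlations used 100000 permutations, or all of them for 9 heads.

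The members and lists were chosen with earlier results of these data known. Values per library are printed for members called in a comparison (in the fits named above or in the fit of 2 groups), for the 12 largest HOM changes of either line at a mean of at least 1 CPM and for the 3 highest of each role; from other pathway lists, genes called or else the 3 largest HOM changes are named. Replicates are single heads. The edgeR and DESeq2 tests set each group difference against the spread between heads, estimated with information shared over genes. No 2 libraries had identical counts. Promoter and protein sequences were not used here. The counts cover all 39 members, but the values of 1 of them are not reported here or drawn.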

Additional observations from a re-analysis of the deposited data

Results flagged for a closer look

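In groups of 4 heads, a head counted as standing apart when its gap to the nearest other head was a share of the group's range above Dixon's 95% critical value. Of 39 such tests, 1 per clock gene in dyrk1a HOM, 2 met this, and chance alone flags about 1 in 20 groups. Both were in dyrk1a HOM 5. CLOCK (ENSDARG00000011703) was at 10.4 CPM there and at 3.37 to 4.22 CPM in the other 3 heads. rorcb was at 34.9 CPM there and at 7.45 to 9.57 CPM in the others. By values chosen after they were seen, HOM 5 was also the lowest dyrk1a head for ciarta (56.7 CPM), tefa (258 CPM) and BHLHE40 (151 CPM), and had the smallest total of that line, 16.2 M counts.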

How the results depend on the processing

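No called gene reversed its direction under the settings run. Over fits that left out 1 head, 6 of 39 members took both signs in scn1lab HOM against WT and 12 in dyrk1a, none of them called. Among them were PER3 (0.14, from −0.06 to 0.21) and NR1D2 (0.00, from −0.32 to 0.23) in scn1lab. For scn1lab HOM against WT the count of called clock genes, 0, became 6 with DESeq2 and 4 in the fit of only the compared groups; for the difference of the HOM effects 0 became 2 with DESeq2. Between WT heads 5 became 11 with DESeq2, 11 in the fit of only the compared groups, 4 with DESeq2's size factors (nfil3-5 lost) and 2 to 5 when 1 head was left out; the cause was not tested. The other comparisons within lines and the HET effect had 0 calls in every setting run. Same-numbered heads did not meet the bar for pairing, a correlation over 0.1 in every pair: correlations of their deviations from group means ran from −0.30 to 0.15 in scn1lab (1 of 9 over 0.1) and from −0.14 to 0.23 in dyrk1a (3 of 6, median 0.09, against 4 of 27 and −0.02 for different numbers). With the numbers as a replicate block, 3 clock genes were called between WT heads and 0 elsewhere, with 208 of all genes in place of 467; leaving out 1 WT head gave 149 to 203 of all genes. Settings added after seeing the data were the photoreceptor covariate, with 4 calls between WT heads, and leaving out heads over 2% digestive genes, where a lone HOM head is assumed to vary like the other groups. Of 10 pairs, 7 passed over all heads, and 6 with a pseudocount of 0.25 or raw totals. Groups of 3 or 4 heads, and counts of 0 to 64 for nr1d4a, limit what could be detected.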

Other observations

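Among the other clock pathway genes, the cell cycle and metabolic output list had large scn1lab HOM changes in PCK1 and vipb, and neither passed. PCK1, an enzyme of glucose synthesis, was at 33.1, 75.2 and 10.1 CPM in scn1lab WT, 216, 318 and 59.5 in HET, and 192, 4.08 and 1484 in HOM (change 3.83 ± 1.70, adjusted p = 0.274, edgeR). In dyrk1a, PCK1 was at 1148 CPM in HET 4 and 633 in HOM 3 and at 2.0 to 14.5 in the other heads. The low scn1lab HOM head was HOM 2, the one of its group with digestive genes under 2% of counts. Digestive genes took 4.70% of counts in dyrk1a HET 4, but 0.141% in dyrk1a HOM 3 and 0.577% in scn1lab HET 1. Liver genes took 2.09% in scn1lab HET 1, 3.92% in scn1lab HET 2 and 0.00394% in scn1lab HOM 2. In dyrk1a they took 0.457% in HET 4 and 0.00793% in HOM 3. The part of digestive or liver tissue in the PCK1 levels was not tested. vipb, a copy of the gene for vasoactive intestinal peptide, was at 96.2 CPM in scn1lab HOM 3 and at most 11.7 CPM in every other head.

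In the light-induced and repair list the largest HOM change in scn1lab was that of HMOX1, a haem-degrading stress enzyme, at 46.7, 100.1 and 78.8 CPM in WT and 396, 28.0 and 179.6 in HOM (1.42 ± 0.77, adjusted p = 0.348, edgeR). In the fit of scn1lab HOM and WT alone, 5.75% of all genes were called lower. Beside that share, 2 of 27 clock accessory genes and 1 of 14 pineal and melatonin genes were lower. In the light-induced list 0 of 9 were lower, and in the cell cycle and metabolic output list 0 of 19. The 3 were the receptor gene RORB (adjusted p = 0.027, edgeR), ID2, an inhibitor of bHLH factors (adjusted p = 0.0455, edgeR), and the opsin gene OPN3 (adjusted p = 0.0483, edgeR). RORB was at 47.5, 42.2 and 46.6 CPM in WT and at 20.8, 26.7 and 18.1 in HOM, without overlap. Over all 9 scn1lab heads these 3 did not pass (adjusted p = 0.276, 0.286 and 0.16, edgeR).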
